A study of Rattus norvegicus with 20 samples.

Results

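The 3 steroidal estrogens of a study of rat mesenteric artery were compared as a class with its 2 selective estrogen receptor modulators (SERMs), using 16 of the 20 arrays. The estrogen side was the equal-weight mean of ethinyl estradiol, estradiol benzoate and equilin (3 arrays each, 9 in all), and the SERM side the equal-weight mean of tamoxifen (4 arrays) and raloxifene (3 arrays). Every array carried the RNA of 1 rat. The animals were Sprague Dawley females that lost their ovaries at 4 weeks of age, recovered for 2 weeks, were gavaged daily for 3 weeks and were 9 weeks old at the end, so all groups, vehicle included, lacked ovarian hormones. The estrogens were given at 0.15 mg/kg and the SERMs at 3 mg/kg, and 4 vehicle rats received only the cyclodextrin carrier. The mesenteric artery was freed of vein and fat before its RNA was hybridised to single-colour oligonucleotide arrays of the rat genome. After the dimmest probes were left out, 13324 probes with 1 gene symbol were compared, for 10225 genes. Class, dose and array set coincided and cannot be told apart. A difference between the classes below therefore says how these 9 arrays differed from these 7.

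Estrogens act through the nuclear receptors encoded by Esr1 and Esr2 and through the membrane receptor Gper1. In the arterial wall they are best known for raising nitric oxide and prostacyclin release from endothelium and for restraining smooth muscle growth. Ethinyl estradiol is the orally active estrogen of contraceptive pills, estradiol benzoate is an ester that releases estradiol, and equilin is an equine estrogen of conjugated hormone preparations. Tamoxifen, a triphenylethylene, and raloxifene, a benzothiophene, bind the same nuclear receptors and act as agonist or antagonist according to tissue.

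The pathway lists were chosen with earlier results of these data known. Among them, fatty acid synthesis had the most genes called higher in the estrogen class (9 of 24). The pathway turns citrate into cytosolic acetyl-CoA (Acly), carboxylates it (Acaca), supplies NADPH (Me1), elongates the product (Elovl6) and desaturates it (Scd), and Thrsp encodes a nuclear protein that follows lipogenesis. Of its 24 measured genes, 18 had a promoter sequence in RefSeq (rat assembly GRCr8), as did 7 of the 9 that passed the test. The 250 bases before the annotated start are shown for 4 of those 7, as examples of called genes rather than as the 4 largest differences. They are Scd at chr1:253231732-253231981, Me1 at chr8:96540245-96540494, Thrsp at chr1:161138965-161139214 and Acly at chr10:85963632-85963881. All lie on the minus strand and are written 5′ to 3′ along the gene. Capitals mark, on either strand, the CCAAT box (CCAAT) and the GC box (GGGCGG).
Scd: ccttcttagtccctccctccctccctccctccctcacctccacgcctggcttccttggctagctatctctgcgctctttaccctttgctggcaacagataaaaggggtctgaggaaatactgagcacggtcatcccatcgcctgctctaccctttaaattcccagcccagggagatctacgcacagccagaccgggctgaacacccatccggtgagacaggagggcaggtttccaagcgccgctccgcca
Me1: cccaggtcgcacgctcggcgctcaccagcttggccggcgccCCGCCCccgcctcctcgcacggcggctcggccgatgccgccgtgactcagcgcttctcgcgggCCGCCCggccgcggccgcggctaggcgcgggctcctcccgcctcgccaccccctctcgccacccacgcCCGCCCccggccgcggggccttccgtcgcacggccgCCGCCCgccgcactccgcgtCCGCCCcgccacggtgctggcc
Thrsp: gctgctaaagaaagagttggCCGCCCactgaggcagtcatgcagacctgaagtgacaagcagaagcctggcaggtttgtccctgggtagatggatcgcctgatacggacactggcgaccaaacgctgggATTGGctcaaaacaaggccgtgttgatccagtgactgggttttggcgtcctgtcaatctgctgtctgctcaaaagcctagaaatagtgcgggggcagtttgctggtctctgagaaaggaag
Acly: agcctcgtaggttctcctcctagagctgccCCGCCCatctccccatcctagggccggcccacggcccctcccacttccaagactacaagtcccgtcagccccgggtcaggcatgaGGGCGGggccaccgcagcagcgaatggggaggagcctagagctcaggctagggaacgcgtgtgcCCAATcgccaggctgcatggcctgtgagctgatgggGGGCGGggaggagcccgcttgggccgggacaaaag
Searched too, on both strands, were the TATA box (TATAAA), the E-box (CACGTG) and the nuclear receptor half-site (AGGTCA). In the sequences shown no match overlaps another. Scd held none of the 5 in this window. Me1 held 5 GC boxes, Thrsp 1 GC box and 1 CCAAT box, and Acly 3 GC boxes and 1 CCAAT box. Of the 7 promoters, 4 held a CCAAT box, 5 a GC box, 1 a TATA box, 1 an E-box and 0 the half-site. Of the 18 in the whole list, called or not, 11, 9, 2, 2 and 1 did, in that order. Among all 27457 rat promoters of that length the shares were 34.3%, 32.4%, 13.1%, 5.79% and 13.7%. These matches describe letters only.

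The arrays fell into sets that touch most results, and these are given first. The 9 estrogen arrays and vehicle array 1 had deposited medians of at least 1.0408, against 1.0007 to 1.015 in the 7 SERM arrays and vehicle arrays 2 to 4. A group of 384 probes, evenly spaced along the probe numbering, separated the same arrays: 335 of the 336 that were tested passed between the classes. Their median log2 level lay between 0.84 and 1.99 in the first set and was at most -1.24 in the second. Vehicle array 1 minus vehicle arrays 2 to 4, at the same probe, was used as a guide to the difference between sets, and it rests on 1 array against 3. Raloxifene array 3 correlated least with the other arrays (mean r 0.842, against 0.919 to 0.959 for every other array). Markers of the artery wall were well above the array median: the mean log2 level of 9 smooth muscle markers lay between 4.04 and 5.48 in the 16 arrays and that of 12 endothelial markers between 3.69 and 4.23, where an array's median probe is at 0.

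A level also changed with a probe's place in the numbering. Probe identifiers run in numbered rows, and in rows 1 to 20 the array medians lay between -0.65 and -0.07 in the estrogen arrays and between 0.25 and 0.76 in the SERM arrays. In those rows 70.4% of probes with 1 symbol were called lower in the estrogen class and 0% higher, whereas in rows 281 to 328 1.07% were lower and 9.57% higher. Vehicle arrays 1 and 2 shared the fall of the estrogen arrays in the first 20 rows (-0.35 and -0.33) and vehicle arrays 3 and 4 the rise of the SERM arrays (0.35 and 0.45). Array 2 thus sits with the estrogen arrays along this gradient, though the guide counts it with arrays 3 and 4. In rows 1 to 20 the median control difference was -0.52, against a median class difference of -0.64. It was -0.40 against -0.42 in rows 21 to 60, -0.22 against -0.17 in rows 61 to 120 and 0.10 against 0.09 in rows 281 to 328. Because levels changed with the row, the main differences are given also after band centring, an alternative chosen after seeing the data. In it, every array was centred on its median within each band of 8 probe rows. In rows 1 to 20 the share called lower then came to 5.42%.

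**Figure D1:**
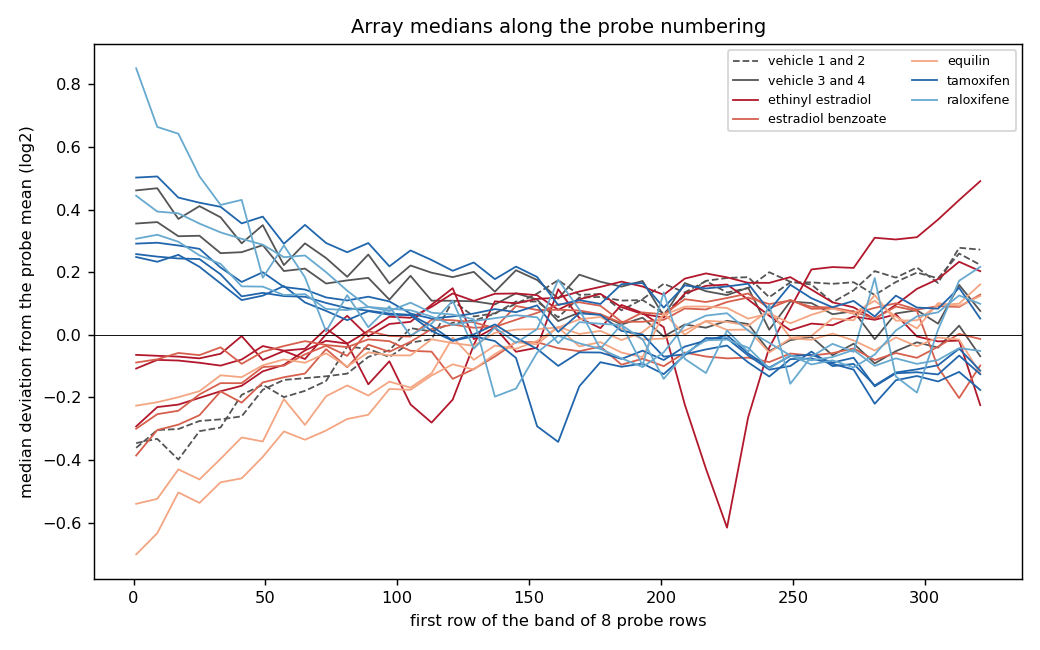
The median log2 deviation of each array from the probe means is plotted against the probe row, in bands of 8 rows, with estrogen, SERM and vehicle arrays in different colours and vehicle arrays 1 and 2 dashed. In the lowest rows the estrogen arrays lie below the SERM arrays, with vehicle arrays 1 and 2 among the former and vehicle arrays 3 and 4 among the latter.

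Across all genes the estrogen class was lower far more often than higher. Of the 13324 probes with 1 symbol, 540 were called higher in the estrogen class (4.05%) and 1870 lower (14.0%) at an adjusted p under 0.05. Under quantile normalisation the split was 927 higher and 1765 lower. With the brightest probe of each of the 10225 genes, the shares were 4.20% higher and 14.3% lower. Band centring left 219 higher (1.64%) and 586 lower (4.40%) probes, or 1.60% and 4.67% of genes. Both treatments called 523 probes in the same direction, 150 higher and 373 lower. All 9 estrogen arrays lay above or below all 7 SERM arrays at 771 probes (5.79%), above at 65 and below at 706. The 3 estrogen means were on one side of both SERM means at 2236 of the 2410 called probes, against 36.7% of all probes tested. The calls were made from these same means, so the selection itself raises that share. No agreement between compounds is read from it.

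Between vehicle array 1 and vehicle arrays 2 to 4, 52 probes with 1 symbol passed (0.390%), all lower. The sign of that control difference matched the class difference at 62.8% of all probes, at 65.0% of those higher in the estrogen class and at 90.4% of those lower. It had the same sign and at least 50% of the size of the class difference at 26.3% of the higher and 62.7% of the lower probes. With arrays centred on their median, the higher genes thus had less of a counterpart among the vehicle arrays than the lower ones. Among probes called after band centring the sign matched at 60.27% of the higher and 73.55% of the lower. The share with at least 50% of the size was then 22.83% of the higher and 25.26% of the lower probes, so that gap nearly closed. With the control difference subtracted, 9 probes passed (0.0676%), all higher in the estrogen class: Scd, Spock1, Cmtm4, Galr1, Slc44a4, Sox2, Tas2r114, Tfcp2l1 and Vill. Of these, Scd and the testican gene Spock1 also passed between the classes themselves.

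**Figure D2:**
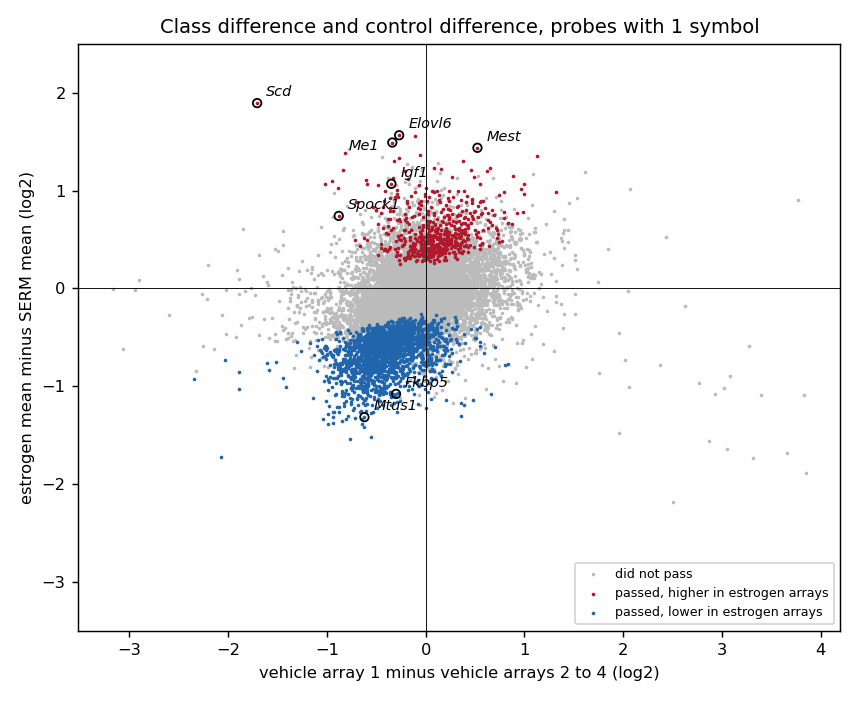
Each point is a probe with 1 symbol, with the estrogen minus SERM difference on one axis and the difference between vehicle array 1 and vehicle arrays 2 to 4 on the other, both in log2 units, and called probes coloured by direction. Scd lies apart, at 1.90 between the classes and -1.71 in the control difference.

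Fatty acid synthesis genes were higher in the estrogen class. Of the 24 measured, 9 passed higher and 0 lower, where 4.20% of genes passed higher, and the median of the list was 0.46 against -0.06 over all genes. As the list was chosen with earlier results of these data known, its count is a description and not an independent result. The control difference had a list median of -0.29, against -0.10 over all genes, and of -0.069 after band centring. It was of opposite sign to the class difference for 6 of the 9, but of the same sign for Insig1 (0.40), Acly (0.38) and Acss2 (0.062). After band centring 9 again passed higher and 0 lower: Insig1 and Tkt no longer passed, and Slc25a1, the mitochondrial citrate carrier, and Gpam, the first acyltransferase of triglyceride synthesis, did (0.72 and 1.08, adjusted p = 0.00947 and 0.00682).

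Scd, stearoyl-CoA desaturase, had the largest difference. In log2 units above the array median, its lowest, median and highest values were 5.91, 6.61 and 7.20 in the 9 estrogen arrays and 4.33, 4.71 and 5.15 in the 7 SERM arrays. Every estrogen array was above every SERM array. The vehicle arrays, in order of their number, read 3.88, 5.36, 5.98 and 5.43, so vehicle array 1 lay below the SERM arrays and the others above them. By compound, the means were 7.13 ± 0.10 with ethinyl estradiol, 6.62 ± 0.21 with equilin and 5.98 ± 0.06 with estradiol benzoate (SD, n = 3 each). They were 4.70 ± 0.35 with tamoxifen (n = 4) and 4.66 ± 0.22 with raloxifene (n = 3), against 5.17 ± 0.90 with vehicle (n = 4). The class difference was 1.90 ± 0.22 (SE, adjusted p = 4.24e-05) and 1.96 after band centring. With the control difference subtracted it was 3.60 ± 0.33 (adjusted p = 0.00012), a value in which vehicle array 1 alone stands for its set.

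Me1, cytosolic malic enzyme, differed by 1.49 ± 0.16 (adjusted p = 2.62e-05). Its values were 4.00, 5.55 and 6.39 in the estrogen arrays, 3.26, 3.79 and 4.13 in the SERM arrays, and 3.77, 3.98, 4.12 and 4.24 with vehicle. Here the classes overlapped, because the estradiol benzoate arrays (mean 4.13 ± 0.18) read like vehicle while ethinyl estradiol (6.11 ± 0.42) and equilin (5.58 ± 0.41) stood well above it. A second Me1 probe gave 1.34 (adjusted p = 8.76e-05). Thrsp ranged from 7.08 to 8.54 in the estrogen arrays, with a median of 7.85, and from 6.72 to 7.40 in the SERM arrays, with a median of 6.98. Its vehicle arrays read 6.82, 6.92, 7.50 and 7.01, and the difference was 0.79 ± 0.12 (adjusted p = 0.000241). Estradiol benzoate (7.16 ± 0.09) again lay near vehicle (7.06 ± 0.30), and ethinyl estradiol (8.24 ± 0.26) and equilin (7.87 ± 0.23) above it.

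Estradiol benzoate had the lowest mean of the estrogens for all 9 called members, while the order of ethinyl estradiol and equilin varied. Elovl6, which lengthens palmitate, differed by 1.57 ± 0.25 (adjusted p = 0.00035), and its second probe by 1.30. Its means were 2.25 with ethinyl estradiol, 2.32 with equilin, 0.92 with estradiol benzoate, 0.22 with tamoxifen, 0.30 with raloxifene and 0.63 with vehicle. Acly, ATP citrate lyase, differed by 1.31 ± 0.24 (adjusted p = 0.00108). Acaca, acetyl-CoA carboxylase, differed by 1.06 ± 0.21 (adjusted p = 0.00202). For both, estradiol benzoate had the lowest mean of the estrogens, 5.51 for Acly and 5.88 for Acaca, against 6.40 or more with the other estrogens. Acss2, which makes acetyl-CoA from acetate, differed by 0.99 ± 0.24, Tkt, transketolase, by 0.62 ± 0.17, and Insig1, a brake on sterol-regulated transcription, by 0.61 ± 0.15. Fasn, the synthase itself, read 0.60 ± 0.47 (adjusted p = 0.417), and its SE exceeded that of every called member. Raloxifene array 3 was the lowest SERM array for Acaca, Acly, Acss2 and Tkt. Without it the Acly difference was 1.03, the Acaca difference 0.82 and the Tkt difference 0.39, and all 9 genes passed with any 1 of the 20 arrays left out.

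**Figure D3:**
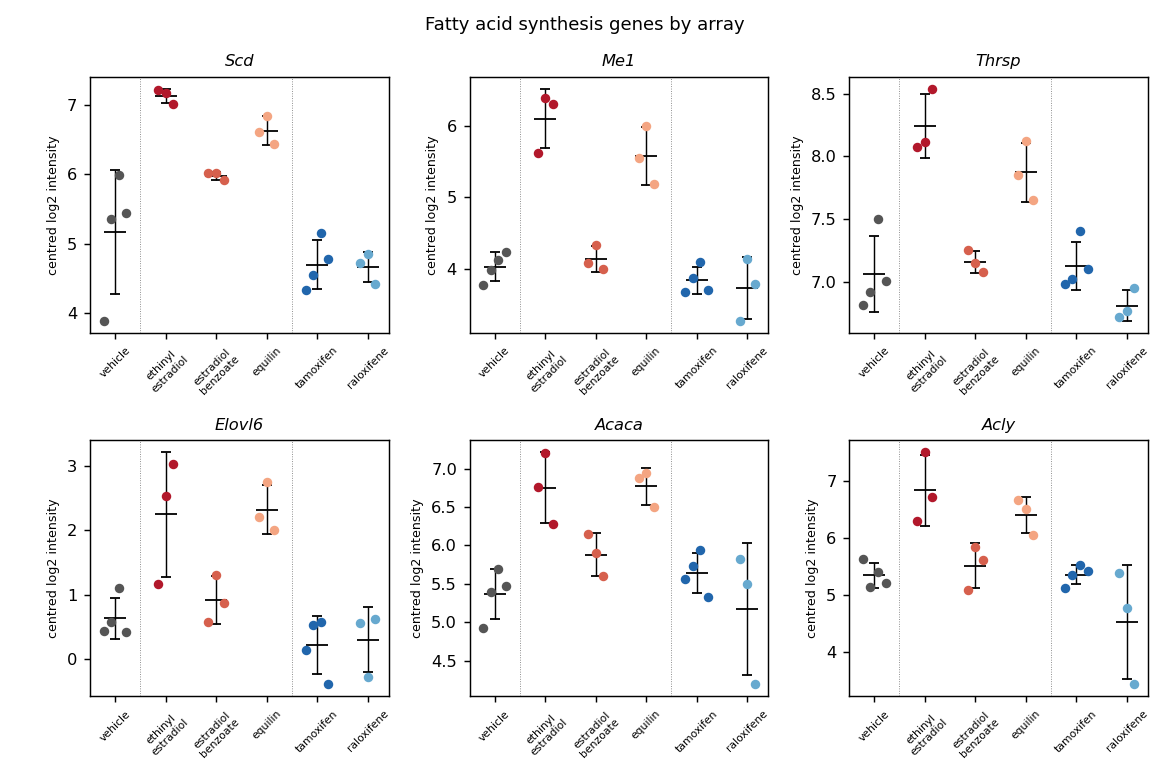
The log2 level of Scd, Me1, Thrsp, Elovl6, Acaca and Acly is shown for every array, by compound, with the mean and SD of each group as a bar. Ethinyl estradiol and equilin have the highest means in all 6 panels, and estradiol benzoate lies between them and the SERMs or near vehicle.

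Adipocyte markers are set beside these genes because fat adjoins the artery and makes the same enzymes. Of 13 measured, 4 passed higher, where 4.20% of all genes did, and 0 lower, and after band centring 3 higher and 1 lower. Pparg, the adipogenic nuclear receptor, differed by 0.76 ± 0.19, and by 1.56 on its other probe (adjusted p = 0.0419). Adipoq, adiponectin, differed by 0.48 ± 0.13, Fabp4, a fatty acid carrier, by 0.93 ± 0.27 (0.60 without raloxifene array 3, and not passed without raloxifene array 1), and Car3, a carbonic anhydrase, by 0.48 ± 0.13. Car3 did not pass after band centring (0.40, adjusted p = 0.207), and its control difference, 0.77, exceeded its class difference. The list median was 0.04. Lpl (-0.01), Lipe (-0.06), Cfd (0.10) and Lep (-0.32) did not pass, and the gene lower after band centring was Cidec, a lipid droplet protein (-0.67). The mean level of the 13 markers ranged from 4.86 to 5.28 in the estrogen arrays, 4.59 to 5.26 in the SERM arrays and 4.79 to 5.13 in the vehicle arrays, and no defining marker was near 0: Adipoq read 5.55 or more in every array of either class. The markers' part in the lipogenic difference was not tested. In whole tissue, fewer cells of a type and less RNA per cell cannot be told apart.

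Sterol synthesis moved less. Of 16 measured genes, 3 passed higher and 1 lower, where 4.20% and 14.3% of all genes did, with a median of 0.18. Idi1, isopentenyl diphosphate isomerase, differed by 0.93 ± 0.18 (adjusted p = 0.00176), with estrogen values of 2.02, 2.68 and 3.56 and SERM values of 1.01, 1.79 and 2.33. Its second probe read 0.05 (adjusted p = 0.887), so the gene's probes disagreed. Fdps, farnesyl diphosphate synthase, differed by 0.61 ± 0.18 and Cyp51, lanosterol demethylase, by 0.83 ± 0.25. Neither passed after band centring (adjusted p = 0.106 and 0.0753) or without raloxifene array 3 (adjusted p = 0.0657 and 0.0566). With that array counted, the Fdps call was lost when any of 4 arrays was left out and the Cyp51 call when any of 5 was. Mvk, mevalonate kinase, was the lower gene. Band centring called 2 higher and 0 lower, Idi1 and the squalene synthase gene Fdft1 (0.76). Sqle, Lss and Msmo1 passed under neither treatment.

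In the growth hormone and IGF axis, 5 of 15 measured genes passed higher, against 4.20% of all genes, and 2 lower, and after band centring 3 higher and 1 lower. Igfbp4, an IGF-binding protein of vascular smooth muscle, read 3.14, 3.64 and 4.03 in the estrogen arrays and 2.48, 2.69 and 2.84 in the SERM arrays. All estrogen arrays were above all SERM arrays, and the vehicle arrays, at 3.53, 3.66, 3.71 and 2.82, sat with the estrogens but for array 4. The difference was 0.96 ± 0.15 (adjusted p = 0.000283) and 0.74 after band centring. Igf1 itself differed by 1.07 ± 0.35 (adjusted p = 0.0425), with means of 7.15 for estradiol benzoate, 6.50 for equilin, 6.03 for ethinyl estradiol, 5.91 for tamoxifen, 5.06 for raloxifene and 7.29 for vehicle. Every compound mean except that of estradiol benzoate was thus well under vehicle, and the Igf1 call did not survive band centring (adjusted p = 0.121) or the loss of raloxifene array 3 (0.57, adjusted p = 0.0682). Prlr, the prolactin receptor, differed by 0.69 ± 0.18, Igfbp6 by 1.14 ± 0.35 and Igfbp7 by 0.28 ± 0.10. Igfbp6 did not pass after band centring (0.93, adjusted p = 0.0954), and its call was lost when any of 5 arrays was left out (0.76 without raloxifene array 3, adjusted p = 0.0773). The Igf1 call was lost when any of 13 arrays was left out and the Igfbp7 call when any of 15 was. Both thus lie at the edge of the threshold with arrays centred on their median. After band centring the Igfbp7 difference was 0.65 (adjusted p = 0.00181). On the lower side, Irs1, a docking protein of the insulin and IGF receptors, differed by -0.87 ± 0.13 (adjusted p = 0.000244) and Jak2, the kinase of the growth hormone receptor, by -1.09 ± 0.19. After band centring Irs1 still passed (-0.52) and Jak2 did not (-0.43, adjusted p = 0.0646).

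Beyond these lists, several single genes were high in the estrogen class. Mest, an imprinted gene that marks fat mass expansion in mice, read 1.88, 2.37 and 3.68 in the estrogen arrays and 0.34, 1.03 and 1.86 in the SERM arrays, without overlap. Its difference was 1.44 ± 0.20 (adjusted p = 0.000129), and vehicle (2.19 ± 0.35) lay among the estrogens. Gapdhs, the sperm form of glyceraldehyde phosphate dehydrogenase, differed by 1.05 ± 0.14 (adjusted p = 9.2e-05), again with no overlap (1.41 to 2.21 against -0.15 to 1.27). Ccnd2, a D-type cyclin, differed by 1.36 ± 0.32 and passed on its second probe at 0.63. Id2, an inhibitor of basic helix-loop-helix factors, differed by 1.21 ± 0.34, and Ap2a1, a subunit of the clathrin adaptor, by 0.94 ± 0.16 on one probe and 0.57 on the other. Notch3, the smooth muscle Notch receptor, differed by 0.83 ± 0.13, while its second probe read 0.33 (adjusted p = 0.0908). Mta2, a chromatin remodelling subunit, differed by 0.76 ± 0.12 with no overlap. Slc25a16, Wiz and Tmem263 passed on one probe each (0.99, 0.94 and 1.0) and read 0.05, -0.01 and -0.21 on their second probe. Pts, which makes the nitric oxide synthase cofactor tetrahydrobiopterin, differed by 0.90 ± 0.25. Raloxifene array 3 was the lowest SERM array for Id2, Slc25a16, Pts and Ccnd2. Without it the differences were 0.69, 0.59, 0.55 and 0.91, all past the threshold. On the probe given first, the control difference was 0.56 for Mta2, 0.52 for Mest, 0.46 for Id2 and 0.39 for Tmem263. It was 0.31 for Notch3, 0.28 for Ap2a1, 0.14 for Pts and 0.08 for Slc25a16. For Gapdhs (-0.49), Ccnd2 (-0.06) and Wiz (-0.003) it was of opposite sign to the class difference.

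Lower in the estrogen class were Fkbp5 and Sgk1, which respond to glucocorticoids, along with the cryptochromes, Ptgs1 and Cd163. Fkbp5, a co-chaperone that glucocorticoids induce, differed by -1.08 ± 0.19 (adjusted p = 0.00105), by -0.85 on its second probe (adjusted p = 0.0218) and by -1.16 after band centring. The values were 1.66, 2.37 and 4.08 in the estrogen arrays, 2.52, 3.89 and 4.66 in the SERM arrays, and 2.87, 3.25, 3.16 and 3.12 with vehicle. The classes overlapped: ethinyl estradiol (3.68 ± 0.46) read above vehicle, and equilin (2.32 ± 0.45) and estradiol benzoate (1.85 ± 0.21) below it. Tamoxifen had the highest mean, 4.20 ± 0.37. Sgk1, a kinase induced by glucocorticoids and mineralocorticoids, read 3.19, 3.81 and 4.02 in the estrogen arrays and 4.27, 4.39 and 4.94 in the SERM arrays. The classes did not overlap, and the vehicle arrays (4.10, 4.01, 3.90 and 4.31) read near the upper estrogen and lower SERM values. The difference was -0.68 ± 0.12 (adjusted p = 0.000746). Angptl4, an inhibitor of lipoprotein lipase, differed by -0.93 ± 0.24 and no longer passed after band centring (-0.43, adjusted p = 0.285). Of the 15 genes measured in this list, 4 passed lower, where 14.3% of all genes did, and 1 higher, the steroid dehydrogenase Hsd17b12 (0.85). Band centring left 2 lower and 1 higher. Tsc22d3, Dusp1 and Pdk4, also glucocorticoid-induced, passed under neither, and the list median was 0.02.

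The clock genes that were lower under both centrings were the cryptochromes, which repress the circadian loop. Cry1 read 0.97, 2.08 and 2.44 in the estrogen arrays, 2.61, 3.19 and 3.47 in the SERM arrays, and differed by -1.17 ± 0.20 (adjusted p = 0.000578). Cry2 differed by -0.64 ± 0.13 (adjusted p = 0.00241), and both passed after band centring (-0.81 and -0.57). Per1, Per3 and Clock passed too (-0.54, -0.44 and -0.52), but not after band centring, and the Per3 call was lost when any of 5 arrays was left out. Of the 15 clock genes, 5 thus passed lower, where 14.3% of all genes did, and 0 higher, with a median of -0.38, and the control difference had a median of -0.32. After band centring the count was 2 lower and 2 higher, where 4.67% and 1.60% of all genes were, as Dbp (0.83) and Nr1d1 (0.47), which are output and repressor genes of the loop, passed higher. At what time of day the arteries were taken is unknown here.

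Some genes of arterial tone were lower too, and the counts of these lists are read against the 14.3% of all genes that passed lower and the 4.20% that passed higher. Ptgs1, the constitutive cyclooxygenase, read 2.29, 2.75 and 2.97 in the estrogen arrays, 3.29, 3.52 and 4.45 in the SERM arrays, and differed by -1.01 ± 0.16 (adjusted p = 0.000402, and -0.67 after band centring). Its second probe read 0.17 (adjusted p = 0.367). The control difference was -0.43 on the first probe and 0.04 on the second. In the nitric oxide, prostanoid and endothelin list, 4 of 18 genes passed lower and 2 higher, and after band centring 1 passed on either side, Ptgs1 lower and the cyclic GMP phosphodiesterase Pde5a higher (0.59). Nos3, the endothelial nitric oxide synthase, read 0.13 ± 0.17 (adjusted p = 0.656). Npy1r, the vasoconstrictor receptor of neuropeptide Y, differed by -1.10 ± 0.23 (control difference -0.83) and by -0.70 on its second probe (control difference -0.15). Together with the bradykinin receptor Bdkrb2 (-0.34 ± 0.10) and the neurotensin receptor Ntsr1 (-0.39 ± 0.13) it made 3 of 19 amine and peptide receptors that passed lower, with 0 higher, a share near that of all genes. After band centring the count was again 3 and 0, where 4.67% of all genes were lower. The Ntsr1 call was lost when any of 14 arrays was left out. The control difference was -0.24 for Bdkrb2 and, of opposite sign to the class difference, 0.55 for Ntsr1. Of 21 calcium and potassium handling genes, 5 passed lower and 1 higher, and after band centring 3 and 0. The voltage-gated potassium channel Kcna5 (-0.82 ± 0.15), the inositol trisphosphate receptor Itpr1 (-1.08 ± 0.21) and the ryanodine receptor Ryr3 (-0.72 ± 0.16) also passed after band centring (-0.47, -0.42 and -0.65). Their control differences were -0.34, -0.79 and -0.32. In the angiotensin, apelin and natriuretic peptide list, 4 of 14 passed lower and 1 higher, the peptidase gene Mme (0.60 ± 0.14), and after band centring 1 and 1. The second Mme probe read 0.007 (adjusted p = 0.99). The angiotensin receptor Agtr1a was among the lower genes at -0.82 ± 0.18, and at -0.21 after band centring (adjusted p = 0.4). Its control difference was -0.75.

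The lowest genes of all lay early in the probe numbering. Among called probes whose classes did not overlap, the 12 largest differences below 0, from -1.52 (Rpl34) to -1.29 (Pus7), were all on probes of rows 1 to 58, where the arrays differed in level, and each became smaller after band centring, though all 12 still passed. Mtus1, which encodes a mitochondrial tumour suppressor that binds the angiotensin type 2 receptor, had the lowest p of these. It read 0.52, 0.69 and 1.08 in the estrogen arrays, 1.85, 2.04 and 2.22 in the SERM arrays, and 0.85, 1.10, 1.68 and 1.65 with vehicle. The classes were well apart, at -1.32 ± 0.13 (adjusted p = 1.58e-05) and -0.97 after band centring. Its other probes, farther along the numbering, read -0.54 (adjusted p = 0.00566) and 0.09 (adjusted p = 0.628). Myh11, smooth muscle myosin, differed by -1.37 ± 0.19 on a probe of row 2 (control difference -0.93). On its brighter probe of row 147 it differed by 0.19 ± 0.18 (control difference 0.49), so its call rests on the early probe. Likewise Fam234b (-1.42), Uba6 (-1.21) and Slc11a2 (-1.27), the divalent metal transporter, did not pass on their later probes, at 0.12 to 0.64. Col5a2, a fibrillar collagen chain, gave -0.87 on a probe of row 1 and 1.21 (adjusted p = 0.0666) on a probe of row 170.

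Wbp4, Strn3, Gpcpd1 and Rspo1, on probes of row 76 and later, were chosen after seeing the data for their size after band centring. Wbp4, a splicing factor, differed by -1.08 ± 0.17 and -1.01 after band centring, although its other probe read -0.04. Strn3, a striatin that binds the estrogen receptor in other systems, differed by -0.76 ± 0.19 and -1.16. Gpcpd1, a glycerophosphocholine phosphodiesterase, read 1.14, 2.15 and 2.42 in the estrogen arrays and 2.51, 2.73 and 3.67 in the SERM arrays, with no overlap. It differed by -0.90 ± 0.16 and -0.92, although its other probe read -0.05 (adjusted p = 0.886). Rspo1, an R-spondin that amplifies Wnt signals, differed by -0.81 ± 0.20 and -0.97. Cd163, the haemoglobin scavenger receptor of macrophages, lay on an early probe, in row 30, and read 0.73, 0.89 and 1.48 in the estrogen arrays and 1.84, 2.02 and 2.69 in the SERM arrays. Its difference was -1.07 ± 0.15 (adjusted p = 0.000145) and -0.57 after band centring. Sgk1, Cry1 and Cd163 thus had in common that the classes did not overlap. Fmo2, a flavin monooxygenase, passed on 2 probes (-1.14 and -0.78), of which the latter missed the threshold after band centring (adjusted p = 0.0799).

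**Figure D4:**
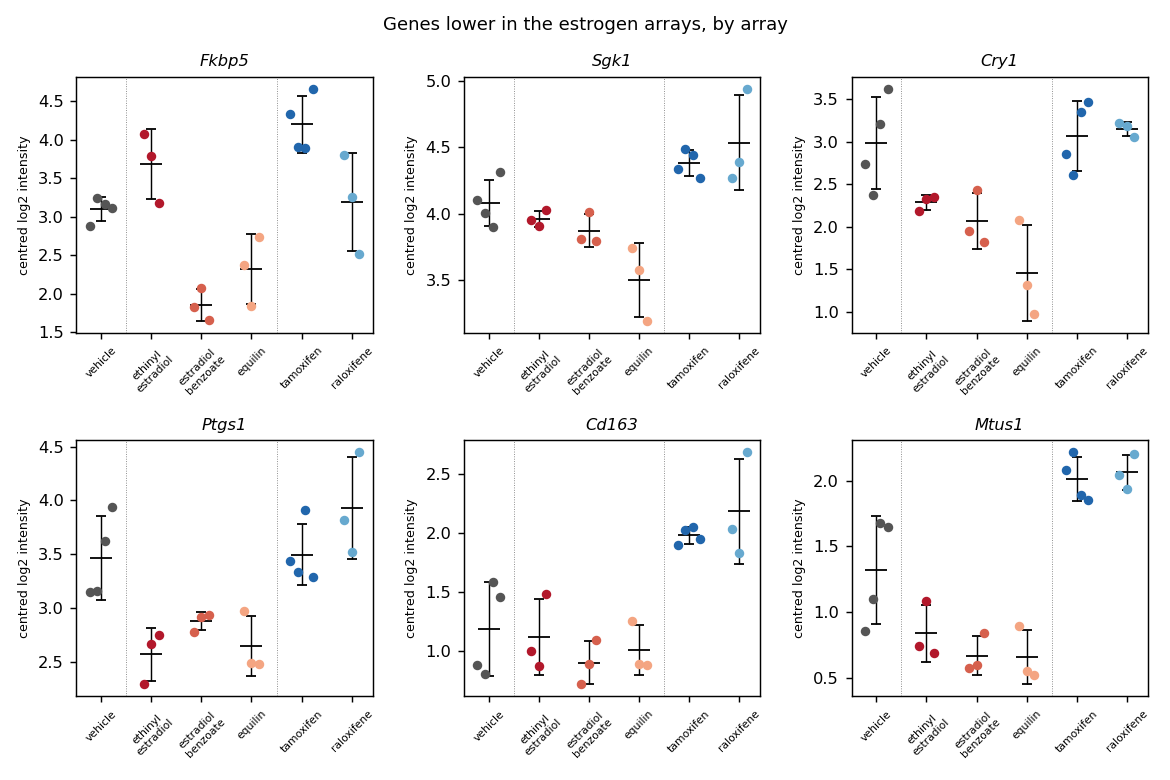
The log2 level of Fkbp5, Sgk1, Cry1, Ptgs1, Cd163 and Mtus1 is shown for every array, by compound, with the mean and SD of each group as a bar. In 5 panels every estrogen array lies below every SERM array, and in the Fkbp5 panel the ethinyl estradiol arrays reach those of the SERMs.

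Matrix genes did not move together. The counts of these lists are read against the 4.20% of all genes that passed higher and the 14.3% lower. After band centring those shares were 1.60% and 4.67%. Of 19 genes for fibrillar collagens and their processing, 2 passed higher and 4 lower, with a median of -0.02. Col1a1, the main chain of collagen I, differed by 0.78 ± 0.17 (adjusted p = 0.00387, and 0.66 after band centring), and its other probe read 0.12 (adjusted p = 0.57). Its mean was 6.02 ± 0.16 with estradiol benzoate, 5.41 ± 0.22 with equilin, 4.70 ± 0.57 with ethinyl estradiol, 4.59 ± 0.11 with tamoxifen and 4.60 ± 0.47 with raloxifene, against 6.22 ± 0.36 with vehicle. Ethinyl estradiol thus read like the SERMs, and estradiol benzoate like vehicle. The 4 lower genes, Col5a2, P4ha2, Plod3 and Loxl3, did not pass after band centring. Of 12 basement membrane genes, 3 passed lower and 1 higher. The laminin chain Lamb2 (-0.60 ± 0.15) was the one that still passed, lower, after band centring, and its other probe read 1.02 (adjusted p = 0.284). Eln, elastin, differed by 0.56 ± 0.14 and missed the threshold after band centring (adjusted p = 0.0664). In the matricellular and elastic list 1 of 24 passed higher and 1 lower, among 16 matrix proteases and inhibitors 0 higher and 3 lower, and among 20 Wnt genes 0 and 2. After band centring none of these 3 lists held a call.

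The remaining lists are given against the same shares, 4.20% of all genes higher and 14.3% lower. Of 23 mitosis genes 1 passed higher and 3 lower, and of 15 DNA replication genes 1 and 2. The checkpoint kinase Bub1 (-0.57 ± 0.12) and the helicase subunits Mcm7 (-0.61 ± 0.14) and Mcm6 (-0.58 ± 0.14) were lower under both centrings. The second Mcm6 probe read -0.02 (adjusted p = 0.96). Of 23 contractile genes 1 passed higher and 3 lower. Synpo2, an actin-bundling protein, was lower on both probes (-0.98 and -0.86), which lie in the early rows 34 and 38. Their control differences were -0.60 and -0.71. After band centring they read -0.63 and -0.51 (adjusted p = 0.0133 and 0.0119). Among 17 heat shock genes 0 passed higher and 4 lower, and the co-chaperone Dnajb4 (-1.16 ± 0.17) was the largest, with -0.22 on its second probe (adjusted p = 0.322). Oxidative phosphorylation (3 higher and 4 lower of 26), ribosomal proteins (2 and 0 of 15), interferon-inducible genes (1 and 5 of 27), xenobiotic metabolism (1 and 2 of 25) and immediate early genes (0 and 1 of 17) held 1, 0, 0, 1 and 0 calls after band centring. The shares of oxidative phosphorylation and ribosomal protein genes called higher were above that of all genes, but 0 of either list was higher after band centring. The median control difference of the immediate early genes was 0.45, the largest of any pathway list.

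The receptors through which these compounds act did not separate the classes. Esr1, estrogen receptor alpha, read -0.92, -0.54 and -0.23 in the estrogen arrays, -0.97, -0.77 and -0.08 in the SERM arrays, and differed by 0.14 ± 0.14 (adjusted p = 0.538). Esr2 differed by -0.11 ± 0.10 (adjusted p = 0.47), Gper1 by -0.38 ± 0.18 (adjusted p = 0.144) and Pgr, the progesterone receptor that estrogens induce in other tissues, by 0.03 ± 0.11 (adjusted p = 0.867). Their probes all read near the array median, between -1.20 and 0.94. On a second Esr2 probe the difference was 0.12 (adjusted p = 0.584). Of 19 genes in the estrogen receptor and response list, Igf1 passed higher and Igfbp3 (-0.46 ± 0.15) and the mineralocorticoid receptor Nr3c2 (-0.37 ± 0.11) lower, and none after band centring. Of all genes, 4.20% passed higher and 14.3% lower, so these counts lie near the shares of all genes. A second Igfbp3 probe, about as bright, read 0.66 (adjusted p = 0.0579), so the gene's probes disagreed. The calls of Igfbp3 and Nr3c2 were lost when any of 15 and any of 7 arrays was left out. Sfrp4, a secreted Wnt antagonist, and Top2a, a topoisomerase of dividing cells, read 0.19 ± 0.22 and 0.14 ± 0.13 (adjusted p = 0.601 and 0.521). For both, estradiol benzoate stood apart from the rest: Sfrp4 had a mean of 0.31 ± 0.16 there, between -1.63 and -0.96 with the other compounds, and 0.65 ± 0.08 with vehicle. Top2a read 0.45 ± 0.22 with estradiol benzoate, -0.60 to 0.0048 with the others and 1.24 ± 0.21 with vehicle.

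Markers of the cells in the wall changed little. Of 9 smooth muscle markers 0 passed higher and 1 lower, Synpo2, and of 12 endothelial markers 0 and 1, the VEGF receptor Kdr (-0.69 ± 0.12, and -0.33 after band centring, adjusted p = 0.0535). The smooth muscle genes Tagln (0.08) and Cnn1 (0.02) did not pass. Acta2, smooth muscle actin, was read by a probe near the array median (-0.91 to 0.51 in the 16 arrays), so its level is no guide to smooth muscle content. None of the 11 fibroblast, 9 lymphocyte, 6 mesothelial, 11 neural, 4 erythroid or 2 intestinal markers passed. Of 15 macrophage and dendritic cell markers, 4 passed lower, where 14.3% of all genes did, and 1 higher, the complement gene C1qc (0.80). Cd163 still passed after band centring, whereas Cd68 (-0.07) and Itgam (0.03) did not. Mast cell markers gave 2 lower of 12, the carboxypeptidase Cpa3 (-0.77 ± 0.10) and the histidine decarboxylase Hdc (-0.37 ± 0.12, lost when any of 13 arrays was left out), and 0 after band centring. None of 15 pancreatic acinar markers passed, yet their mean level ran from -1.49 to 5.81 in the estrogen arrays and from -1.39 to 3.37 in the SERM arrays, and was 2.93 in vehicle array 1. Pancreas lies beside the mesentery, and its enzymes' part in any difference here was not tested.

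**Figure D5:**
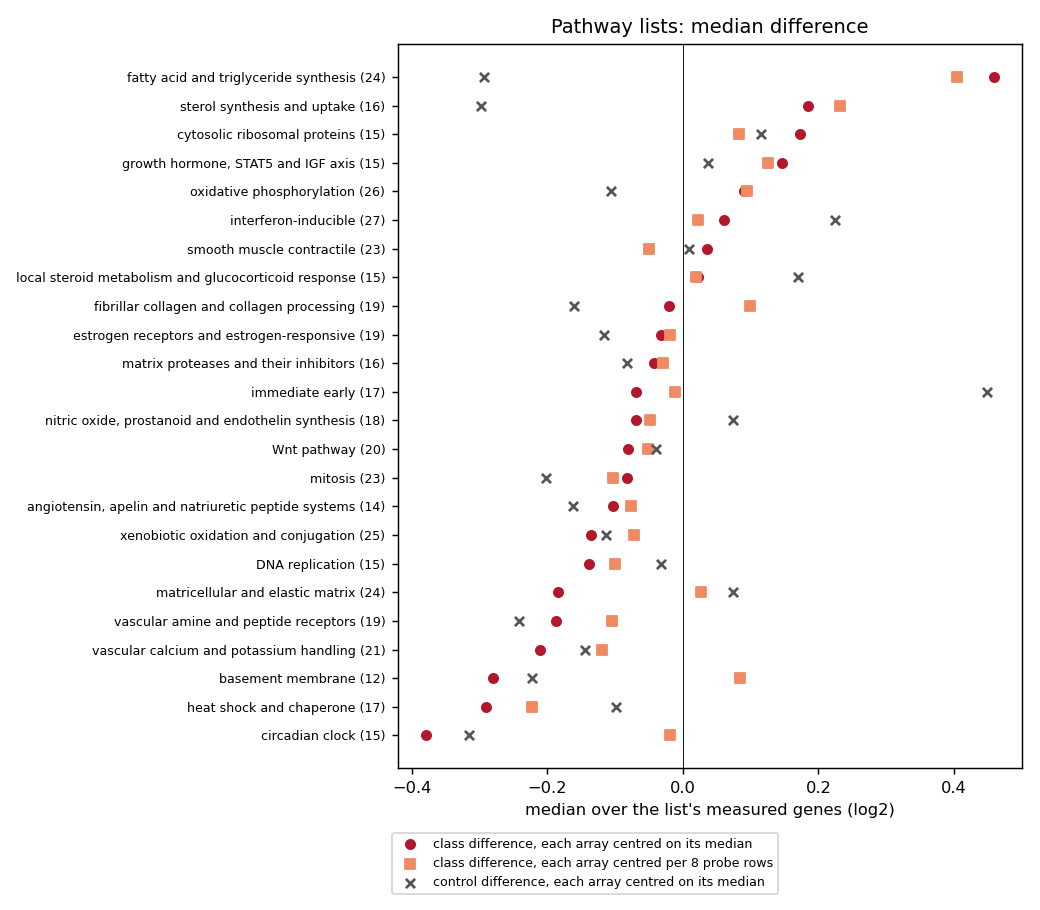
For each pathway list, the median estrogen minus SERM difference in log2 units is plotted as centred on the array median and after band centring, beside the median control difference. Fatty acid synthesis has the highest class median, 0.46, with a control median of -0.29, and the clock list the lowest, -0.38, with a control median of -0.32.

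Within a class the compounds shared a dose, so 4 pairs were compared, with p-values adjusted over all probes and pairs together. Ethinyl estradiol carries an ethynyl group on the steroid, estradiol benzoate is a benzoic ester, and equilin has an unsaturated B ring. Ethinyl estradiol and estradiol benzoate differed at 25 probes with 1 symbol (0.188%), 14 higher and 11 lower with ethinyl estradiol. Ethinyl estradiol and equilin differed at 14 (0.105%), all higher with ethinyl estradiol, and equilin and estradiol benzoate at 5 (0.0375%), 4 higher and 1 lower with equilin. Tamoxifen and raloxifene differed at 2 (0.0150%), 1 in each direction.

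Me1 separated estradiol benzoate from both other estrogens. It was 1.97 higher with ethinyl estradiol than with estradiol benzoate (95% interval 1.44 to 2.51, adjusted p = 0.00415) and 1.44 higher with equilin than with estradiol benzoate (0.91 to 1.97, adjusted p = 0.0432). Between ethinyl estradiol and equilin the Me1 difference was 0.53 (-0.002 to 1.06, adjusted p = 0.566). Thrsp was 1.08 higher with ethinyl estradiol than with estradiol benzoate (0.68 to 1.48, adjusted p = 0.0432). For Scd the same pair gave 1.15 (0.41 to 1.89, adjusted p = 0.344), which did not pass. Acly, Acaca and Elovl6 did not pass between any pair, with intervals that reached 2.12, 1.58 and 2.16 for ethinyl estradiol minus estradiol benzoate.

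Hspb1 and Fmo2 separated ethinyl estradiol from both other estrogens. Hspb1, a small heat shock protein, had a mean of 7.62 ± 0.20 with ethinyl estradiol, 5.94 ± 0.35 with estradiol benzoate and 5.77 ± 0.17 with equilin. It differed by 1.68 (1.24 to 2.13, adjusted p = 0.00415) from estradiol benzoate and by 1.85 (1.40 to 2.30, adjusted p = 0.0032) from equilin. Fmo2 was 2.60 (adjusted p = 0.0034) and 2.12 (adjusted p = 0.0131) higher with ethinyl estradiol than with those estrogens. Fkbp5 was 1.83 higher with ethinyl estradiol than with estradiol benzoate (1.18 to 2.48, adjusted p = 0.0338), and Ntsr1 1.31 higher (0.87 to 1.75, adjusted p = 0.0205). Against equilin they did not pass, at 1.36 (0.71 to 2.02, adjusted p = 0.15) and 0.36 (-0.08 to 0.79). For Sfrp4, where estradiol benzoate stood apart, ethinyl estradiol minus estradiol benzoate was -1.94 (adjusted p = 0.0489). The class mean of the estrogens therefore averages unlike values for these genes.

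The SERMs were not told apart at any of the 133 probes named here. Scd differed by 0.04 between tamoxifen and raloxifene (-0.66 to 0.73, adjusted p = 0.983), Me1 by 0.11 (-0.39 to 0.61) and Mest by -0.03 (-0.66 to 0.60). These intervals leave room for differences of more than 0.6 in either direction for Scd and Mest. Fkbp5 was 1.01 higher with tamoxifen (0.40 to 1.62, adjusted p = 0.3), and Acly 0.83 higher (0.08 to 1.57, adjusted p = 0.535), neither past the threshold.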

How the data were processed

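RNA of mesenteric artery was measured on 20 single-colour CodeLink whole rat genome arrays, 1 per rat. The series' design text names GenePix Pro 5.0, Acuity 3.1, GeneSpring 7.1 and CodeLink Expression Analysis without stating what each did. Arrays were grouped by the treatment in the labels. The deposited values are linear intensity per probe, background-subtracted and scaled per array by the authors, as read from values at or below 0 and from array medians near 1. Of 35129 probes, 16865 had 1 gene symbol in the platform annotation, 165 several and 18099 none, and only the first were named. The table had 847 missing values and 5347 at or below 0.

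Values below 0 were set to 0, an offset of 0.103 (0.1 of the median) was added, and log2 values were centred on each array's median. Probes with over 1 missing array in any group (40) and then the 30% with the lowest mean were left out. A limma model (limma 3.58.1, R 4.3.3) with 6 group means over all 20 arrays and an intensity trend was fitted to the remaining 24562 probes, and p-values were Benjamini-Hochberg adjusted over all of them, with a threshold of 0.05. The contrast less the control difference came from a fit in which vehicle array 1 had its own mean. The 4 pairs of compounds at 1 dose were adjusted together and given 95% intervals. A gene's list value is that of its brightest probe. All fits were tested on simulated data. The number of arrays limits the precision.

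The 36 gene lists hold 753 genes, of which 559 were measured. The members and the lists were chosen with earlier results of these data known. Named genes were the 12 most raised and 12 most lowered called genes whose classes did not overlap, those that passed also after subtraction of the control difference, up to 3 called members of each pathway list and 2 of each cell type list, and 12 fixed genes. Ccnd2, Pts, Tmem263, Mta2, Strn3, Wbp4, Rspo1 and Gpcpd1 were added for their size after band centring, and other called list members, second probes and the remaining members mentioned were added after their values were seen. Replicate numbers did not pair the arrays (mean correlation of deviations -0.0028 for the same number and 0.0009 for different numbers).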

Additional observations from a re-analysis of the deposited data

Results flagged for a closer look

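In a group of 4 arrays, an array was singled out where its gap to the nearest other array was above Dixon's critical value as a share of the group's range. Among the 133 probes named here, 18 of 265 groups held such an array, and chance alone singles out about 1 in 20 groups. Of the 18, 14 were tamoxifen array 3.

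For tamoxifen array 3 the gap over range, a share and not a log2 value, is given in brackets. This array lay above the other tamoxifen arrays for Agrn (0.857), Atp6ap2 (0.873), Car3 (0.851), Cops3 (0.897) and Ddah2 (0.857). It also lay above them for Mcm6 (0.907), Mme (0.878), Rpl10 (0.863), Strn3 (0.889) and Ubap2 (0.892). It lay below them for Ccnd2 (0.865), Dnajb4 (0.893), Notch3 (0.841) and Rock1 (0.868). The widest gaps in log2 units were those of Ccnd2, at 0.81 against 1.97 to 2.15, and Rock1, at 1.75 against 2.82 to 2.98. The fatty acid synthesis genes gave no such case.

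Gpcpd1 in tamoxifen array 4 read 2.51, against 2.70 to 2.73 in the other 3 arrays (gap over range 0.835). Cpa3 in vehicle array 2 read 2.08, against 2.45 to 2.52 in the other 3 arrays (gap over range 0.835). Irs1 in vehicle array 2 read -0.85, against -0.29 to -0.20 in the other 3 arrays (gap over range 0.856). Rplp1 in vehicle array 4 read 6.73, against 7.60 to 7.71 in the other 3 arrays (gap over range 0.885).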

How the results depend on the processing

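The lipogenic differences kept their direction and call for Scd, Me1, Thrsp, Elovl6, Acly, Acaca and Acss2 under both centrings. Over the 133 named probes and all alternatives, 4944 values kept direction and side of the threshold, 463 no longer passed, 1 newly passed and 28 changed sign. The losses were uneven across alternatives. Without raloxifene in the SERM mean, 64 of the 133 no longer passed and 2 changed sign. With band centring in 8 probe rows, 47 no longer passed and 6 changed sign. The main limits are that class, dose and array set coincide, that the guide to the set is 1 vehicle array, and that 70.4% of the earliest probes were called lower. Treating raloxifene array 3 as outlying and leaving it out as a replicate are the same fit. A fit with the replicate number as a block gave 1944 called probes between the classes, against 2410, and 13, 7 and 3 for ethinyl estradiol against estradiol benzoate, ethinyl estradiol against equilin and equilin against estradiol benzoate, against 25, 14 and 5; 5 of 20 arrays were closest to an array of their own number.

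The count of 2410 between the classes was 5562 with array weights, 1323 without equilin in the estrogen mean, 876 without raloxifene in the SERM mean, 805, 947 and 748 with bands of 8, 4 and 16 rows, and 1101 with band centring without raloxifene array 3. With 1 array left out it ran from 1805 (without equilin array 3) to 2803 (without raloxifene array 3). The 52 of the control difference were 15 with an offset of 0.5 times the median, 2 with the lowest 50% left out, 726 with array weights, 34 without the spaced probes, 24 with only 1-symbol probes and 34, 34 and 30 with bands of 8, 4 and 16 rows, and ran from 39 to 148 (without vehicle array 2) with 1 array left out. The 9 that passed less the control difference were 1 and 24 with offsets of 0.5 and 0.02 times the median, 1 with the lowest 50% left out, 119 with array weights and 3 with bands of 4 rows, and ran from 1 to 20.

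For ethinyl estradiol against estradiol benzoate the count of 25 was 15 without a filter, 506 with array weights, 16 on the 16 compound arrays alone and 158 with band centring without raloxifene array 3, and ran from 6 to 85. For ethinyl estradiol against equilin the 14 were 5, 1052 and 135 under the first, second and last of these, and ran from 1 to 88. For equilin against estradiol benzoate the 5 were 2, 1695, 2 and 20 under the 4, 2 with band centring, and ran from 0 to 9. For tamoxifen against raloxifene the 2 were 1, 888 and 6 without a filter, with array weights and with band centring without raloxifene array 3, and ran from 1 to 62. The cause of these shifts was not tested.

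Signs changed as follows, in log2 units. Nos3 was -0.075 with array weights, -0.084 without raloxifene in the SERM mean, -0.021 with band centring and -0.16 with that and without raloxifene array 3, and ran from -0.050 (without raloxifene array 3) to 0.25 with 1 array left out. Sfrp4 was -0.37 without estradiol benzoate in the mean, -0.15 with band centring without raloxifene array 3, and -0.10 (without raloxifene array 3) to 0.41 with 1 array left out, and Top2a -0.13 without estradiol benzoate and -0.10 without tamoxifen in the mean. Pgr was -0.046 without equilin in the mean, -0.18 and -0.089 with band centring, with and without raloxifene array 3, and ran from -0.0082 (without equilin array 2; -0.0003 without tamoxifen array 4) to 0.090 with 1 array left out. Ntsr1 was 0.10 and Esr1 -0.0083 without tamoxifen in the mean, and Acta2 0.092 without raloxifene in it. With band centring, with and without raloxifene array 3, Ltbp2 was 0.11 and 0.26, Mmp7 0.016 and 0.060, Per3 0.062 and 0.13, and Esr2 0.020 and 0.11; Sdhc was 0.070 and Ifi27 0.078 in the latter.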
